A study of Mus musculus with 16 samples.

Results

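Mitosis genes encode the proteins that take a cell through G2 and M phase. Here they are a list of 43 symbols, named for their part in G2 and M phase and drawn up with earlier results of these data known. All 43 were found among the 55359 gene IDs of the files, and all 43 were among the 17531 genes with enough reads to be tested. The data are RNA sequencing of whole back skin from male mice aged 8 weeks, whose hair cycle is labelled telogen, the resting phase. WT mice and mice lacking both TNF receptors (Tnfrsf1a and Tnfrsf1b, labelled KO) were each profiled without UVB (control) and after a treatment labelled 3xUVB, with 4 libraries in each of the 4 groups. The sources used here do not give the strain, the alleles, the UVB dose or the collection time. The labels do not say that the 4 libraries of a group are 4 animals, and p-values therefore describe the scatter among these libraries alone.

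Entry into mitosis is driven by Cdk1 bound to cyclins A and B. Kinases of the Polo, Aurora and checkpoint families then organise the spindle and its attachment to kinetochores, and the anaphase-promoting complex (APC/C), a ubiquitin ligase, ends the phase by marking cyclin B and securin for destruction. The transcripts of most of these genes are made mostly in cycling cells and peak in G2 and M, so in normal skin they come mainly from dividing basal keratinocytes and, in a growing hair follicle, from the hair matrix. Their promoters are known for the CHR (cell cycle genes homology region), which recruits the DREAM complex in resting cells and MYBL2 and FOXM1 in cycling cells, and for CCAAT boxes, which bind NF-Y.

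Promoter sequences are shown because they are what many of these genes have in common that the choice of symbols did not use. RefSeq's table of promoters (GRCm38.p6, 250 bases before to 50 after each gene start) held 35 of the 43 genes. Ccna2, Cdc25c, Aurkb, Incenp, Spc24, Tpx2, Kif20a and Foxm1 had no entry. The 4 windows printed are those of 3 genes with both words in different arrangements, Ccnb2, Cdc20 and Plk1, and of Birc5, which has neither. Each is written 5′ to 3′ on the gene's strand in lower case. CHR words (TTTGAA or TTCGAA, or their reverse complements) and CCAAT boxes (CCAAT, or ATTGG on the other strand) are in capitals. The gene start is the base that follows the first 250.
Ccnb2 (chr9:70421505-70421804, minus strand): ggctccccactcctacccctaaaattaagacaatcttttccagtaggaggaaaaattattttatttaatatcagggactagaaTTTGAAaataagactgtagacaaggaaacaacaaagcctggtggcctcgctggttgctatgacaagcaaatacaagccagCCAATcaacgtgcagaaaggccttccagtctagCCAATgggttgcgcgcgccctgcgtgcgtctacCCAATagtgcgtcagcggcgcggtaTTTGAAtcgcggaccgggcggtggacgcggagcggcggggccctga
Cdc20 (chr4:118437294-118437593, minus strand): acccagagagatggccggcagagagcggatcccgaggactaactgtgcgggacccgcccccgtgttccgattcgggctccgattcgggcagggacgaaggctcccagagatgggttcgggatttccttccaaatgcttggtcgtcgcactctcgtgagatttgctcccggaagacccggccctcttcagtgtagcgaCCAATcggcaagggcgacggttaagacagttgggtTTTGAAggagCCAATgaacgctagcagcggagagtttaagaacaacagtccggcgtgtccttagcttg
Plk1 (chr7:122159185-122159484, plus strand): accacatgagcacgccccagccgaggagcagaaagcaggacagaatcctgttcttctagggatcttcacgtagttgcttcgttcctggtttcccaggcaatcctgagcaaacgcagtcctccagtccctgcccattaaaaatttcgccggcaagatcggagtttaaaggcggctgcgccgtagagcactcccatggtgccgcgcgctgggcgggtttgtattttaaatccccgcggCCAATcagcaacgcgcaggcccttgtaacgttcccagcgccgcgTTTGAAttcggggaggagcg
Birc5 (chr11:117848987-117849286, plus strand): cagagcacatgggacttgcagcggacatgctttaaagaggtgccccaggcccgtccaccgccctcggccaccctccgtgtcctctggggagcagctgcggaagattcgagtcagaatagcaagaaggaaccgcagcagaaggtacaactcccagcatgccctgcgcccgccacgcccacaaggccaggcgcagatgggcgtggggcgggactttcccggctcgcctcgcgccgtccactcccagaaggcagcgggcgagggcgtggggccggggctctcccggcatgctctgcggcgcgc

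A CHR word on either strand stood in the window of 28 of 35 mitosis genes (80%), against 21.7% of all 27025 genes in the table. Most of these words lay close to the gene start. In 26 of the 35 genes (74.3%) a CHR word began within 50 bases of the start, against 6.12% of all genes, and the median position of the one nearest the start was 6.5 bases after it. CCAAT boxes stood in 26 of 35 genes (74.3%), against 41.1% of all genes, and 2 or more of them in 19 (54.3%), against 13.3%. Both words together were found in 24 genes (68.6%), against 8.61% of all genes. E2F-like words are of the kind found in promoters of genes for DNA replication. Searched on either strand, they were the word TTCCCGC, the word TTGGCGC, the word TTCGCGC and the word TTGCCGC, and they were in 6 of 35 (17.1%), against 10.9% of all genes. CHR and CCAAT words shared bases in 1 of the 37 windows of these genes, and CCAAT and E2F-like words in 3. The 7 genes with no CHR word in this window were Ccnb1, Melk, Birc5, Cenpe, Nuf2, Nusap1 and Mybl2. These are matches of letters, given as a description with no test, and they show no binding.

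**Figure D1:**
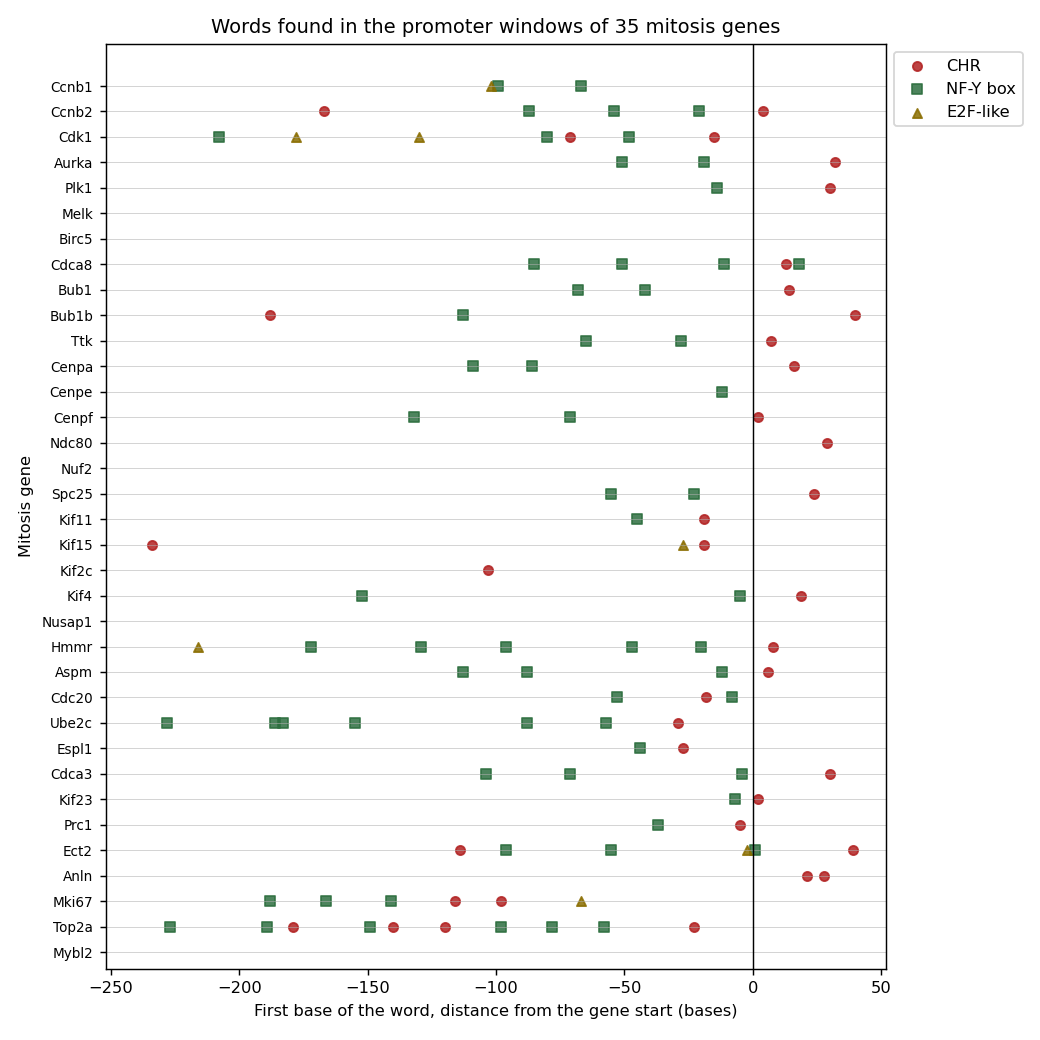
Position of each word in the first promoter window of 35 mitosis genes, with distance from the gene start in bases on the horizontal axis and 1 gene per line (circles, CHR; squares, CCAAT box, drawn as NF-Y box; triangles, E2F-like words). CHR words crowd around the start in 26 genes, and CCAAT boxes lie mostly upstream, with a median first base at -69.5.

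UVB raised the mitosis genes together in both genotypes. In WT, 41 of 43 were higher after UVB and 0 lower, with a median log2 fold change of 1.05. In KO, 42 of 43 were higher and 0 lower, with a median of 1.28. Calls are at a Benjamini-Hochberg adjusted p under 0.05 in edgeR's quasi-likelihood test, and 18.8% of all genes tested were called in WT (10.2% higher, 8.6% lower) and 32.3% in KO (17.2% higher, 15.1% lower). The median over all genes was -0.03 in WT and -0.02 in KO. In WT, 24 members were called and more than 2-fold higher, and in KO 33 were. The share of all genes with a change of that size was not counted. The lowest UVB library lay above the highest control library for 42 members in WT, against 15.1% of all genes, and for 38 in KO, against 13.6%. The members called in both genotypes numbered 40, and the share of all genes called in both was not counted either. In whole skin, more dividing cells and more of each transcript per dividing cell cannot be told apart.

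Counts are given as CPM, reads scaled to library size with TMM factors, which are not corrected for gene length, so levels are compared within a gene and not between genes. Summed over the 43 genes, the WT control libraries 1 to 4 held 548, 405, 609 and 370 CPM and the WT UVB libraries 931, 914, 953 and 961 CPM. The KO control libraries held 614, 359, 355 and 440 CPM and the KO UVB libraries 1272, 1063, 950 and 717 CPM. No UVB library was as low as any control library. WT UVB was the tightest group (940 ± 21.5 CPM, SD, n = 4) and KO UVB the widest (1000 ± 231 CPM), beside 483 ± 114 CPM in WT control and 442 ± 121 CPM in KO control.

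The same libraries stood at the edges of their groups gene after gene. KO UVB library 1 was the highest of its group for 41 of 43 genes and the highest of all 16 libraries for 39, and KO UVB library 4 was the lowest of its group for 42. KO control library 1 was the highest of its group for 41 genes, and in WT control, library 3 was the highest for 34 and library 4 the lowest for 29. How often these libraries stood at the edges over all genes was not counted. KO UVB libraries 1 and 4 also differed most of all pairs within a group over all genes, so this order is not particular to the mitosis genes. Without KO UVB library 1, 40 members were called in KO, and without library 4, 42. Without KO control library 1, all 43 were called. In WT, the count was 35 without WT control library 4 and 36 without WT control library 2. Over all fits that left out 1 library, 11.5 to 20.8% of all genes were called in WT and 24.1 to 35.7% in KO.

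**Figure D2:**
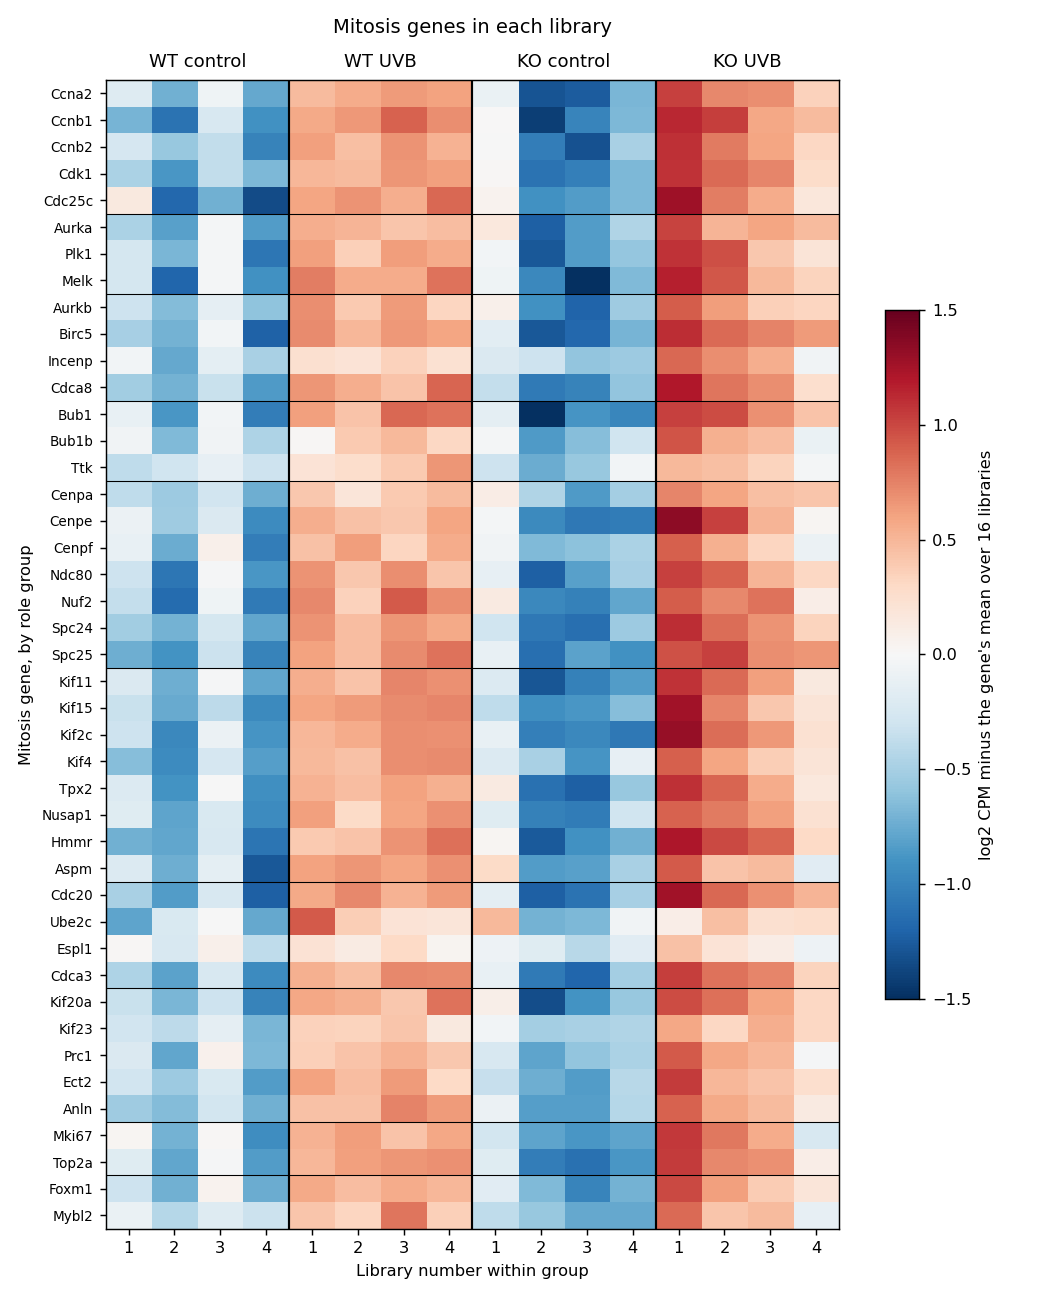
Colour gives log2 CPM of each mitosis gene (rows, in role groups) in each of the 16 libraries (columns), minus that gene's mean over the 16 libraries. Both blocks of UVB libraries are mostly red and both control blocks mostly blue; KO UVB library 1 is the darkest red column, and KO UVB library 4 is pale.

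The motor of mitotic entry rose in all its parts. All 5 genes for cyclins A and B, Cdk1 and its activating phosphatase Cdc25c were higher in both genotypes, with a median log2 fold change of 1.15 in WT and 1.39 in KO. Ccnb1, cyclin B1, was at 7.20, 5.39, 9.83 and 6.18 CPM in WT control and 17.2, 18.2, 21.5 and 18.9 CPM in WT UVB, and at 11.7, 4.37, 5.86 and 7.32 CPM in the KO controls and 25.5, 23.96, 17.5 and 16.1 CPM in KO UVB. Its lowest UVB library lay above its highest control library in both genotypes, and its log2 fold change of 1.40 ± 0.26 (adjusted p = 0.00155) was the largest of the 43 in WT, beside 1.51 ± 0.26 (adjusted p = 0.000628) in KO.

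Cdk1, the kinase that cyclin B activates, had 8.54, 6.45, 9.13 and 7.39 CPM in WT control, 16.7, 16.5, 18.7 and 18.1 CPM in WT UVB, 11.96, 5.51, 5.80 and 7.43 CPM in the KO controls and 25.1, 21.3, 19.6 and 14.3 CPM in KO UVB. Control and UVB libraries did not overlap, and its log2 fold change was 1.15 ± 0.22 (adjusted p = 0.00192) in WT and 1.39 ± 0.22 (adjusted p = 0.000355) in KO. Ccna2, cyclin A2, which acts from S phase to early mitosis, had 17.2, 11.96, 18.8 and 11.6 CPM in WT control, 27.5, 29.1, 30.7 and 29.9 CPM in WT UVB, 18.5, 8.05, 8.31 and 12.3 CPM in the KO controls and 40.2, 32.5, 32.1 and 25.1 CPM in KO UVB. It rose by 0.97 ± 0.23 (adjusted p = 0.00904) in WT and 1.46 ± 0.24 (adjusted p = 0.000433) in KO, again with no overlap between control and UVB libraries. Ccnb2, cyclin B2, whose window is printed above, had 7.20, 5.77, 6.60 and 4.26 CPM in WT control, 13.1, 11.7, 13.6 and 12.2 CPM in WT UVB, 8.51, 4.15, 3.46 and 6.10 CPM in the KO controls and 18.3, 14.7, 12.8 and 10.6 CPM in KO UVB. It rose by 1.09 ± 0.24 (adjusted p = 0.00584) in WT and 1.34 ± 0.24 (adjusted p = 0.000907) in KO, and all its UVB libraries lay above its controls.

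The mitotic kinases followed. Aurka, Plk1 and Melk all rose in both genotypes, with median log2 fold changes of 1.001 in WT and 1.32 in KO. Plk1, the Polo kinase needed for centrosome maturation and bipolar spindles, had 5.86, 4.40, 6.90 and 3.32 CPM in WT control, 10.8, 9.06, 10.9 and 10.3 CPM in WT UVB, 6.85, 2.92, 3.94 and 4.71 CPM in the KO controls and 14.9, 13.8, 9.33 and 8.06 CPM in KO UVB. Its promoter window, printed above, has 1 CCAAT box and 1 CHR word. Its log2 fold change was 1.001 ± 0.26 (adjusted p = 0.0162) in WT and 1.32 ± 0.27 (adjusted p = 0.00193) in KO. Melk, a kinase found in proliferating cells, whose window holds neither word, had 4.47, 2.36, 5.24 and 2.87 CPM in WT control, 9.18, 7.87, 7.90 and 9.44 CPM in WT UVB, 5.15, 2.75, 1.86 and 3.38 CPM in the KO controls and 12.04, 10.3, 7.52 and 6.79 CPM in KO UVB. The log2 fold change of Melk was 1.19 ± 0.29 (adjusted p = 0.00941) in WT and 1.47 ± 0.29 (adjusted p = 0.00163) in KO. Control and UVB libraries did not overlap for either gene.

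The chromosomal passenger complex corrects faulty spindle attachments and then moves to the midzone for cytokinesis. Its 4 genes, Aurkb (the kinase), Birc5 (survivin), Incenp (the scaffold) and Cdca8 (borealin), rose in both genotypes. Birc5 had 5.86, 5.08, 8.04 and 3.58 CPM in WT control, 13.5, 11.7, 13.04 and 12.5 CPM in WT UVB, 7.44, 3.43, 3.67 and 5.10 CPM in the KO controls and 17.8, 14.9, 13.8 and 12.9 CPM in KO UVB. The log2 fold change of Birc5 was 1.17 ± 0.24 (adjusted p = 0.00334) in WT and 1.60 ± 0.24 (adjusted p = 0.000261) in KO. The printed Birc5 window has no CHR word and no CCAAT box. Whether the rise of a gene goes with the words in its window was not tested. Aurkb had 7.02, 5.58, 7.95 and 5.73 CPM in WT control, 14.1, 11.4, 13.6 and 10.9 CPM in WT UVB, 9.19, 4.66, 3.78 and 6.05 CPM in the KO controls and 16.3, 13.5, 11.2 and 10.9 CPM in KO UVB. Aurkb rose by 0.93 ± 0.22 (adjusted p = 0.00955) in WT and 1.13 ± 0.23 (adjusted p = 0.00175) in KO.

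Incenp rose least of the complex. It had 21.4, 12.96, 19.97 and 15.8 CPM in WT control, 25.9, 25.5, 28.01 and 25.9 CPM in WT UVB, 19.004, 17.8, 14.6 and 15.1 CPM in the KO controls and 40.01, 35.8, 32.1 and 21.2 CPM in KO UVB. The groups did not overlap in either genotype, and the log2 fold change was 0.58 ± 0.18 (adjusted p = 0.0310) in WT and 0.95 ± 0.18 (adjusted p = 0.00108) in KO. The WT call of Incenp was lost when WT control library 2 or 4 was left out, or WT UVB library 2, 3 or 4, with adjusted p up to 0.0911, and it was also lost with library totals as the scaling. Cdca8 had 7.15, 6.26, 8.17 and 5.69 CPM in WT control, 16.2, 14.9, 13.8 and 18.8 CPM in WT UVB, 8.02, 4.92, 5.11 and 6.82 CPM in the KO controls and 23.5, 17.9, 16.7 and 12.3 CPM in KO UVB, with no overlap. Its log2 fold change was 1.22 ± 0.20 (adjusted p = 0.000591) in WT and 1.499 ± 0.20 (adjusted p = 0.000104) in KO.

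The spindle checkpoint kinases Bub1, Bub1b and Ttk hold back anaphase until every kinetochore is attached, and they were more mixed. Bub1b (BubR1) had 14.8, 9.61, 14.7 and 11.1 CPM in WT control, 15.5, 19.97, 21.4 and 18.9 CPM in WT UVB, 14.97, 8.43, 9.80 and 12.4 CPM in the KO controls and 29.4, 22.1, 21.1 and 14.2 CPM in KO UVB. In WT its groups did not overlap, but the log2 fold change of 0.59 ± 0.22 (adjusted p = 0.0673) did not pass the test. In KO, where the lowest UVB library lay below the highest control library, it rose by 0.93 ± 0.22 (adjusted p = 0.00476). Ttk (Mps1) had 10.6, 11.2, 12.7 and 11.2 CPM in WT control, 15.97, 16.6, 18.1 and 21.8 CPM in WT UVB, 11.2, 8.22, 9.32 and 13.5 CPM in the KO controls and 19.4, 18.9, 17.5 and 13.5 CPM in KO UVB. Ttk rose by 0.67 ± 0.15 (adjusted p = 0.00696) in WT and 0.72 ± 0.15 (adjusted p = 0.00268) in KO, below the medians of the 43. Bub1 rose by 1.13 ± 0.28 (adjusted p = 0.0113) in WT, and its rise of 1.64 ± 0.29 (adjusted p = 0.000776) was the largest of the members in KO.

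At the centromere and kinetochore, all 7 genes rose in both genotypes, with medians of 1.05 in WT and 1.32 in KO. Cenpf, a large outer kinetochore protein, had 18.3, 11.8, 20.9 and 9.63 CPM in WT control, 26.8, 30.4, 24.6 and 28.999 CPM in WT UVB, 19.004, 12.5, 12.9 and 14.3 CPM in the KO controls and 36.6, 28.5, 24.7 and 18.6 CPM in KO UVB. Its log2 fold change was 0.87 ± 0.23 (adjusted p = 0.0179) in WT and 0.88 ± 0.23 (adjusted p = 0.00977) in KO, and in KO its groups overlapped through UVB library 4. The WT call of Cenpf was lost without WT control library 2 or 4 (adjusted p up to 0.0579). Cenpa, the histone variant that marks centromeres, had 13.5, 12.1, 14.5 and 10.6 CPM in WT control, 23.4, 19.97, 23.2 and 24.5 CPM in WT UVB, 19.1, 12.9, 9.80 and 12.4 CPM in the KO controls and 29.3, 26.7, 24.1 and 23.6 CPM in KO UVB. Cenpa did not overlap between control and UVB, and it rose by 0.84 ± 0.16 (adjusted p = 0.00210) in WT and 0.93 ± 0.16 (adjusted p = 0.000639) in KO. Spc25, Spc24, Ndc80 and Nuf2 build the Ndc80 complex that grips microtubules. They rose by 1.36, 1.15, 1.05 and 1.26 in WT and by 1.53, 1.48, 1.32 and 1.23 in KO. Cenpe, a kinetochore motor, rose by 0.91 ± 0.28 (adjusted p = 0.0334) in WT and 1.51 ± 0.28 (adjusted p = 0.00118) in KO. Its WT call was lost without WT control library 2 or 4 or any 1 of the 4 WT UVB libraries, with adjusted p up to 0.0929, and also with no filter on low counts.

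Spindle motors and their partners rose as a block, 8 of 8 in both genotypes, with medians of 1.14 in WT and 1.34 in KO. Kif11 (Eg5), which pushes spindle poles apart, had 15.96, 11.2, 18.3 and 10.8 CPM in WT control, 26.9, 24.9, 30.6 and 29.7 CPM in WT UVB, 16.1, 7.63, 9.16 and 10.4 CPM in the KO controls and 39.2, 33.4, 28.3 and 20.5 CPM in KO UVB. It did not overlap between control and UVB libraries, and its log2 fold change was 0.99 ± 0.23 (adjusted p = 0.00836) in WT and 1.49 ± 0.24 (adjusted p = 0.000413) in KO. Tpx2, the activator that brings Aurora A to the spindle, had 12.6, 7.81, 14.5 and 7.71 CPM in WT control, 20.9, 20.01, 22.1 and 21.1 CPM in WT UVB, 15.9, 6.70, 6.23 and 9.82 CPM in the KO controls and 31.005, 26.6, 21.3 and 16.2 CPM in KO UVB. It rose by 0.98 ± 0.28 (adjusted p = 0.0255) in WT and 1.30 ± 0.28 (adjusted p = 0.00323) in KO. The WT call of Tpx2 was lost when WT control library 2 or 4 was left out, or WT UVB library 3 or 4, with adjusted p up to 0.0767, and also with no filter on low counts. Aspm, a spindle pole protein, rose by 1.15 ± 0.28 (adjusted p = 0.00948) in WT and by 0.85 ± 0.28 (adjusted p = 0.0287) in KO. Its KO control library 1, at 16.5 CPM, lay above its KO UVB library 4, at 12.1 CPM, and the KO call was lost without KO control library 2, 3 or 4 or KO UVB library 1, with adjusted p up to 0.0924. It was also lost with no filter on low counts and in a fit of the KO groups alone.

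Of the 4 genes of mitotic exit, 3 rose in each genotype. Cdc20, the APC/C coactivator whose window is printed above, had 9.03, 7.07, 10.7 and 5.42 CPM in WT control and 18.8, 20.8, 18.2 and 19.7 CPM in WT UVB, and 11.4, 5.42, 5.86 and 8.93 CPM in the KO controls and 30.2, 22.9, 20.4 and 18.03 CPM in KO UVB. It rose by 1.26 ± 0.24 (adjusted p = 0.00196) in WT and 1.53 ± 0.24 (adjusted p = 0.000354) in KO. Espl1 (separase), the protease that opens cohesin at anaphase, had 15.3, 12.8, 15.9 and 11.6 CPM in WT control, 17.5, 16.5, 18.6 and 15.6 CPM in WT UVB, 14.2, 13.3, 11.3 and 13.4 CPM in the KO controls and 20.5, 17.3, 16.3 and 14.3 CPM in KO UVB. Its groups overlapped in WT, where the log2 fold change of 0.29 ± 0.12 (adjusted p = 0.113) was the smallest of the 43 and did not pass. In KO it rose by 0.39 ± 0.12 (adjusted p = 0.0259), the smallest of the changes in KO, and the call was lost without KO control library 2 or 3 or KO UVB library 1 or 2, with adjusted p up to 0.0884. It was also lost with library totals as the scaling and in a fit of the KO groups alone.

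Ube2c, the E2 enzyme of the APC/C, was the member whose value rested most on how reads were counted. On the gene's strand it had 17.3, 25.4, 29.5 and 17.4 CPM in WT control, 56.5, 38.4, 34.4 and 33.6 CPM in WT UVB, 41.8, 18.2, 18.7 and 28.7 CPM in the KO controls and 31.9, 40.7, 35.2 and 35.6 CPM in KO UVB. KO control library 1 lay above every KO UVB library, and the log2 fold change was 0.86 ± 0.26 (adjusted p = 0.0289) in WT and 0.42 ± 0.25 (adjusted p = 0.221), which did not pass, in KO. The WT call was lost when WT control library 1 or 4 was left out, or WT UVB library 1, with adjusted p up to 0.0895. It was also lost with no filter on low counts and with a replicate block, and without KO control library 1 the KO value was 0.73 (adjusted p = 0.0233). In the GENCODE gene order, Tnnc2 (fast skeletal muscle troponin C) overlaps it on the opposite strand. Each library held 351 to 1224 reads on the strand of Ube2c and 9490 to 35043 on the other, which was 96.8% of all its reads. Over all genes, 94.7 to 96.1% of the reads of a library were on the expected strand. When strand was ignored, reads shared by both genes dropped out and 82 to 447 reads a library remained for Ube2c. It then had 6.53 ± 0.83 CPM in WT control, 14.5 ± 1.13 CPM in WT UVB, 5.45 ± 1.78 CPM in the KO controls and 18.5 ± 3.39 CPM in KO UVB (SD, n = 4). Counted this way the log2 fold change was 1.15 ± 0.18 (adjusted p = 0.000507) in WT and 1.76 ± 0.19 (adjusted p = 2.08e-05) in KO. All 43 members were then called in KO, where 31.6% of all genes were. What part reads of the muscle gene had in the stranded value was not tested. Kif20a (40.1% of its reads on the other strand), Ccna2 (26.1%) and Kif4 (17.5%) also had many such reads and were called in both genotypes by either way of counting.

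In cytokinesis, all 5 genes rose in both genotypes. Anln (anillin), which scaffolds the contractile ring, had 19.04, 17.5, 22.6 and 16.7 CPM in WT control, 37.1, 37.1, 46.04 and 42.9 CPM in WT UVB, 25.9, 15.5, 15.5 and 20.5 CPM in the KO controls and 50.7, 40.7, 38.1 and 30.2 CPM in KO UVB. It rose by 1.10 ± 0.17 (adjusted p = 0.000519) in WT and 1.04 ± 0.17 (adjusted p = 0.000553) in KO. Prc1, which bundles microtubules of the central spindle, had 18.5, 12.5, 22.4 and 13.4 CPM in WT control, 27.5, 28.8, 30.6 and 28.3 CPM in WT UVB, 18.03, 12.4, 14.2 and 15.4 CPM in the KO controls and 40.6, 31.9, 30.1 and 21.1 CPM in KO UVB. Prc1 rose by 0.79 ± 0.19 (adjusted p = 0.0111) in WT and 1.04 ± 0.20 (adjusted p = 0.00120) in KO. Neither gene overlapped between control and UVB. Ect2, the activator of RhoA, rose by 0.96 and 1.16, and the motors Kif23 and Kif20a by 0.68 and 1.14 in WT and by 0.80 and 1.28 in KO.

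Mki67 (Ki-67), the coat of mitotic chromosomes that serves as the common stain for cycling cells, had 94.4, 56.7, 93.9 and 48.8 CPM in WT control, 133, 144, 125 and 138 CPM in WT UVB, 76.9, 53.7, 50.7 and 53.6 CPM in the KO controls and 193, 161, 137 and 78.4 CPM in KO UVB. The groups did not overlap, although KO UVB library 4 was only just above KO control library 1. Mki67 rose by 0.88 ± 0.25 (adjusted p = 0.0248) in WT and 1.28 ± 0.25 (adjusted p = 0.00176) in KO. Its WT call was lost when WT control library 2 or 4 was left out, or WT UVB library 2 or 4, with adjusted p up to 0.0764, and also with no filter on low counts. Top2a, the topoisomerase that untangles sister chromatids, had 58.2, 38.5, 65.3 and 36.9 CPM in WT control, 93.6, 101, 104 and 106 CPM in WT UVB, 58.3, 32.3, 30.5 and 35.9 CPM in the KO controls and 136, 109, 106 and 70.9 CPM in KO UVB. It rose by 1.02 ± 0.23 (adjusted p = 0.00661) in WT and 1.42 ± 0.23 (adjusted p = 0.000503) in KO.

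The transcription factors that drive the G2 and M programme rose as well. Foxm1 had 8.49, 6.39, 10.9 and 6.27 CPM in WT control, 15.5, 14.4, 15.5 and 14.8 CPM in WT UVB, 9.33, 6.65, 5.27 and 6.43 CPM in the KO controls and 20.9, 16.1, 13.6 and 11.9 CPM in KO UVB. Foxm1 rose by 0.90 ± 0.20 (adjusted p = 0.00659) in WT and 1.17 ± 0.21 (adjusted p = 0.000782) in KO. Mybl2 (B-Myb) had 4.07, 3.22, 3.80 and 3.49 CPM in WT control, 5.81, 5.45, 7.61 and 5.56 CPM in WT UVB, 3.35, 2.92, 2.56 and 2.55 CPM in the KO controls and 7.86, 5.82, 6.05 and 4.01 CPM in KO UVB, few reads for a member (94.8 a library on average). Mybl2 rose by 0.74 ± 0.18 (adjusted p = 0.0114) in WT and 1.06 ± 0.19 (adjusted p = 0.000823) in KO, with no overlap of control and UVB libraries for either factor.

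No difference between genotypes was detected in these genes. Of the 43 members, 0 were called between KO and WT without UVB, where 1.69% of all genes were called, and 0 with UVB, where 0.856% were. For the interaction, the UVB change in KO minus that in WT, 0 members and 0.0228% of all genes were called. None of the 43 had an unadjusted p under 0.05 in any of these 3 contrasts. DESeq2 called 0 in each with 0 under that p, and limma voom called 0 with 5, 2 and 9 under it. Unstranded counts called 0 in each, with 0, 0 and 1 under it. Log2 fold changes of KO against WT ran from -0.39 (Bub1) to 0.26 (Ube2c) without UVB, with a median of -0.10, and from -0.18 (Ube2c) to 0.31 (Cenpe) with UVB, with a median of 0.11. The standard errors were of the same size, as for Mki67 at -0.32 ± 0.25 without UVB and 0.08 ± 0.25 with UVB, so modest genotype effects could not be resolved. With strand ignored, both Ube2c values changed sign, to -0.26 ± 0.19 (adjusted p = 0.720) without UVB and 0.35 ± 0.18 (adjusted p = 0.346) with UVB.

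The point estimates of the UVB change leaned towards KO. The log2 fold change was larger in KO than in WT for 37 of 43 members, where the interaction was positive for 52.6% of all genes. Its median over the members was 0.25, from -0.45 (Ube2c) to 0.60 (Cenpe). The sign for Ube2c rested on how reads were counted. With strand ignored its interaction was 0.61 ± 0.26 (adjusted p = 0.341). Cenpe had the interaction of 0.60 ± 0.39 (adjusted p = 0.538), and that of Mki67 was 0.40 ± 0.35 (adjusted p = 0.665). Because the same KO libraries carry all 43 genes, this count is 1 observation and not 43. The lean was not particular to the members. The interaction was also positive for 57 of 69 other mitosis genes and 37 of 40 DNA replication genes. It was positive for 17 of 29 regulators of cell cycle entry and exit and 7 of 15 APC/C genes. Without UVB, 14 of 18 anagen hair follicle markers were called lower in KO than in WT, where 1.69% of all genes were called. What part this had in the lean was not tested. Across the members, the WT and KO changes had a Pearson correlation of 0.71 (n = 43 genes, which share libraries and are not independent), given as a description.

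**Figure D3:**
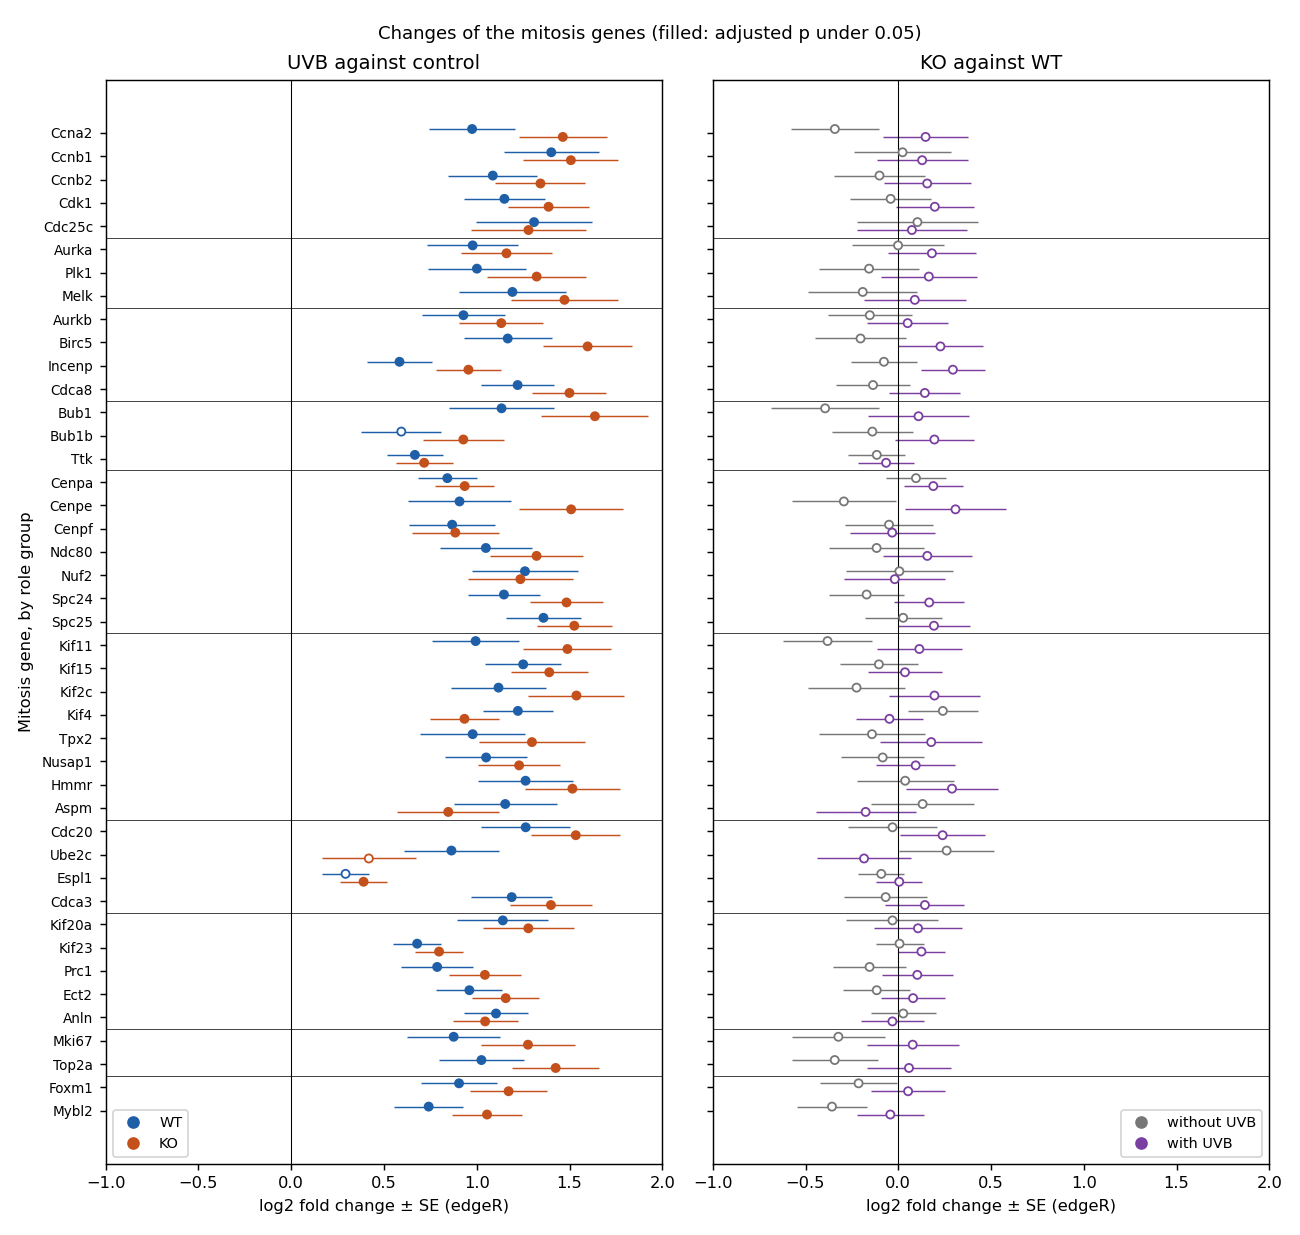
Log2 fold change ± SE (edgeR) of each mitosis gene, in role groups, for UVB against control on the left (WT blue, KO orange) and KO against WT on the right (grey without UVB, purple with UVB); filled points have an adjusted p under 0.05. On the left only Bub1b and Espl1 in WT and Ube2c in KO are open, and on the right all points are open and lie between -0.39 and 0.31.

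Other genes of the cell cycle are given by list, beside the shares of all genes above (10.2% higher in WT and 17.2% in KO). Of 69 other mitosis genes, 47 were higher and 0 lower in WT (median log2 fold change 0.80), and 61 were higher and 0 lower in KO (median 1.02). Among these, Smc4, a condensin subunit, was at 0.05 ± 0.09 (adjusted p = 0.739) in WT, which did not pass, and rose by 0.36 ± 0.09 (adjusted p = 0.00971) in KO. Bub3, the partner of both Bub kinases, was at 0.22 ± 0.09 (adjusted p = 0.0875) in WT, which did not pass, and rose by 0.36 ± 0.09 (adjusted p = 0.00543) in KO. Genes of DNA replication and nucleotide synthesis, which act before mitosis in S phase, were higher for 17 of 40 in WT (median 0.40) and 37 of 40 in KO (median 0.68), and 0 were lower in either. Rrm1, a subunit of ribonucleotide reductase, rose by 0.74 in WT and 0.67 in KO. Pcna, the sliding clamp of DNA polymerase, was at 0.22 ± 0.13 (adjusted p = 0.240) in WT, which did not pass, and rose by 0.52 ± 0.13 (adjusted p = 0.00589) in KO. Whether these lists differed from the 43 members, or between genotypes, was not tested.

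The APC/C itself was taken as a list of its own. Of 15 genes for APC/C subunits and its late coactivator Fzr1, 0 were called in WT by edgeR, with 2 at an unadjusted p under 0.05, and the median log2 fold change was 0.07. In KO, 2 were higher and 1 lower, with a median of 0.06. Of all genes, 18.8% were called in WT and 32.3% in KO. Anapc5 was lower in KO at -0.27 ± 0.07 (adjusted p = 0.0105), and Fzr1 was higher at 0.28 ± 0.07 (adjusted p = 0.00959). In WT, Anapc5 was at -0.11 ± 0.07 (adjusted p = 0.288) and Fzr1 at 0.13 ± 0.07 (adjusted p = 0.249).

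Among regulators of cell cycle entry and exit, some were called higher and some lower. Of 29 measured, 10 were higher and 3 lower in WT (median 0.13), and 13 were higher and 4 lower in KO (median 0.26). Of all genes, 8.6% were lower in WT and 15.1% in KO. The counts of lower regulators are near these shares and are not read as a result. Cdkn1a, the p21 inhibitor of cyclin-dependent kinases and a p53 target, was higher together with the genes of division, at 153 ± 13.8 CPM in WT control and 322 ± 17.5 CPM in WT UVB, and at 153 ± 17.8 CPM in the KO controls and 296 ± 25.4 CPM in KO UVB (SD, n = 4). Its log2 fold change was 1.08 ± 0.10 (adjusted p = 6.90e-06) in WT and 0.95 ± 0.10 (adjusted p = 1.66e-05) in KO. The lower genes in WT were Rbl2, which encodes the DREAM pocket protein p130, and the inhibitors Cdkn1b and Cdkn1c. In KO they were Rb1, Rbl2, Cdkn1b and Ccnd2, a D-type cyclin, which was at -0.77 ± 0.16 (adjusted p = 0.00225). E2f1, a factor of S phase genes, and Ccnd1, cyclin D1, did not pass in either genotype, at 0.04 and 0.26 in WT and 0.26 and 0.07 in KO.

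**Figure D4:**
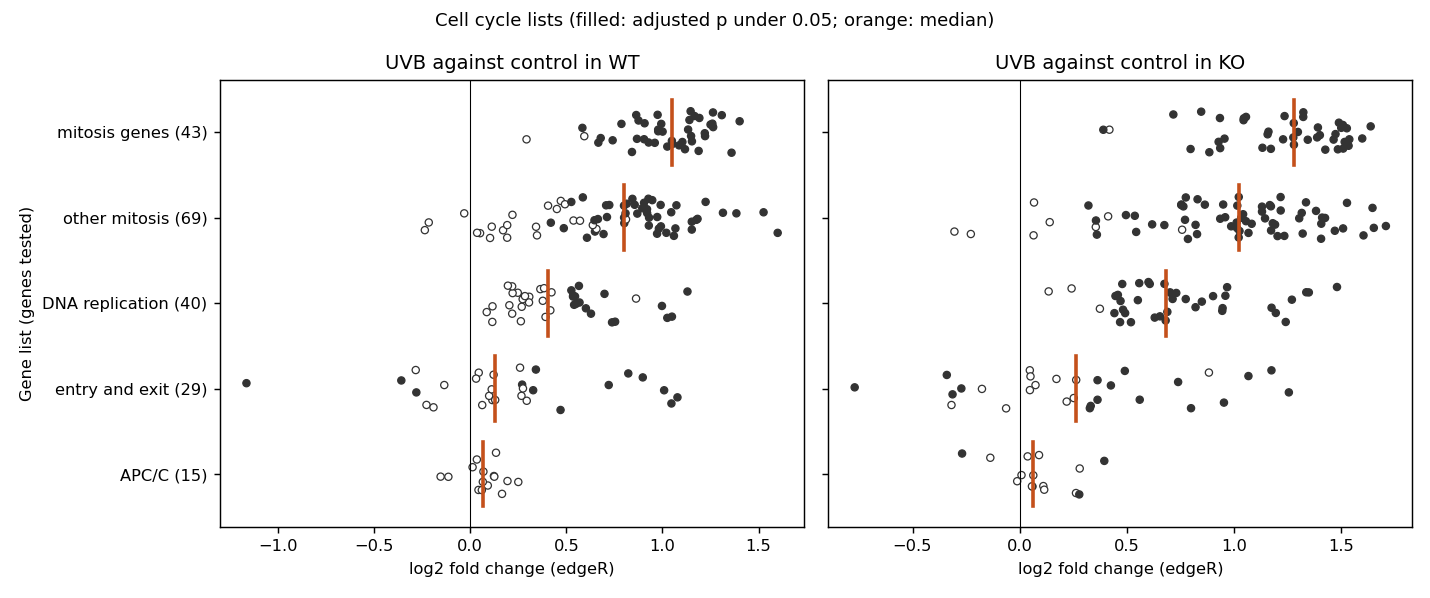
Log2 fold change (edgeR) after UVB of every tested gene in 5 cell cycle lists, in WT (left) and KO (right); filled points have an adjusted p under 0.05 and orange lines mark the medians. The medians of the mitosis genes are 1.05 in WT and 1.28 in KO, single other mitosis genes reach 1.60 and 1.71, and the APC/C genes lie around 0, with medians of 0.07 and 0.06.

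The libraries held between 15644375 and 23200649 reads in genes, of which 6540 to 25549 fell on the 43 members. Transcripts of both deleted receptors were lower in KO but present, at -0.74 (Tnfrsf1a) and -1.47 (Tnfrsf1b) on the log2 scale without UVB, and every KO library was below every WT library of the same treatment for each. The sources used here do not say which exons the alleles remove, which makes this a partial check of the labels. Abundant keratins rose in the same libraries. The summed level of 9 keratinocyte markers was between 9380 and 13960 CPM in the WT controls and between 29801 and 39085 CPM in WT UVB. In KO it was between 10991 and 18526 CPM in the controls and between 20286 and 61670 CPM after UVB. Of the 9 keratinocyte markers, 5 rose (Krt5, Krt14, Krt1, Krt10 and Lor) and 1 fell (Krt15) in each genotype, while Itga6, Col17a1 and Trp63 did not pass in either, and none was at 0 in any library. With each marker weighted equally, the mean standardised level was -1.10 to -0.13 in the WT controls and 0.11 to 0.80 in WT UVB. In KO it was -0.94 to 0.45 in the controls and -0.77 to 1.26 after UVB, so the KO groups overlapped. Krt14, a basal layer keratin, rose by 1.54 in WT and 1.93 in KO, and Krt10, a keratin of the layers above, by 1.93 and 1.64. Among KO UVB libraries, the keratinocyte sum was 61670, 38451, 28489 and 20286 CPM in libraries 1 to 4, the same order as that of the mitosis genes. Among KO controls, library 1, the highest for mitosis genes, had the lowest keratinocyte sum, 10991 CPM. The part of keratinocyte content in the result was not tested.

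Markers of the growing hair follicle were lower after UVB in both genotypes. Of 19 genes of the anagen matrix and shaft 18 were measured, and they summed to 1244 to 3159 CPM in WT control, 22.8 to 193 CPM in WT UVB, 93.2 to 330 CPM in the KO controls and 15.03 to 27.5 CPM in KO UVB. Every WT control library was above every library of the other groups in this sum, although the label is telogen. The label could not be checked further, because no library of another labelled phase was at hand. In WT 18 of 18 fell after UVB and in KO 17 of 18, with Krt71, an inner root sheath keratin, at -5.50 and -5.06. Krt72, Krt31, Krt33a, Krt34 and Krt86 were at 0 in 1 to 3 libraries. In the controls, the mitosis genes summed to 483 ± 114 CPM in WT and 442 ± 121 CPM in KO. What part the cells behind the hair follicle markers had in these sums was not tested. With the mean standardised level of these markers as a covariate, 0 members were called in either genotype, all 43 still had positive log2 fold changes in both, and 1 gene in WT and 131 genes in KO were called in all. The covariate did not overlap between control and UVB libraries in either genotype, so in that fit it and the treatment cannot be told apart.

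**Figure D5:**
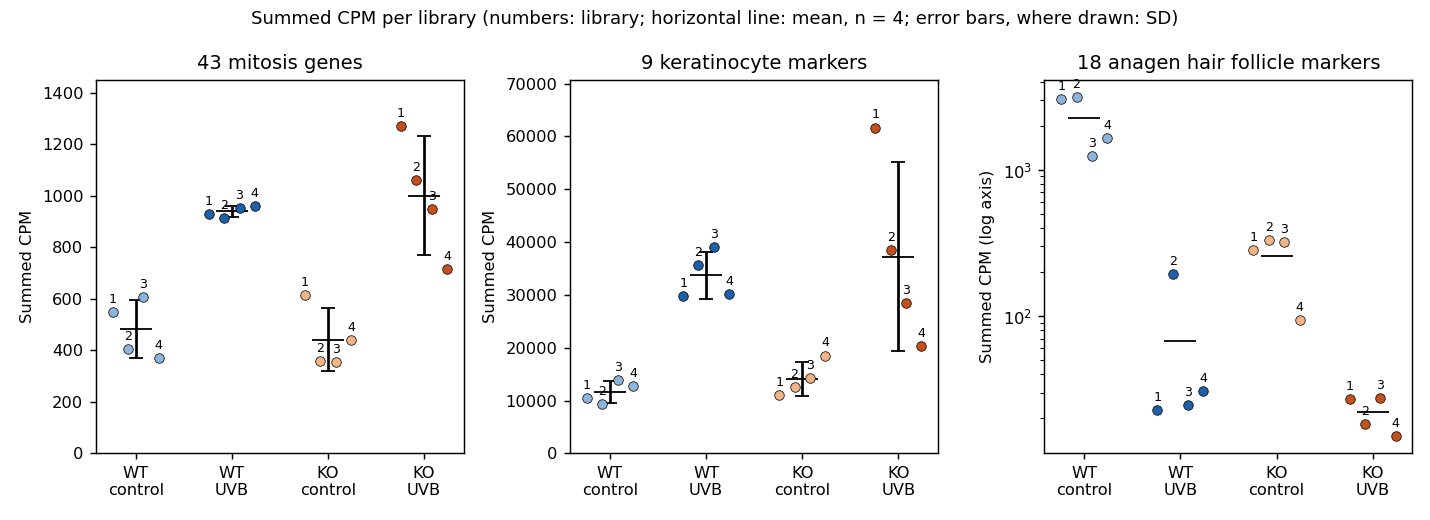
Summed CPM in each library (points, numbered 1 to 4) of the 43 mitosis genes, 9 keratinocyte markers and 18 anagen hair follicle markers (log axis); the horizontal line is the mean of 4 libraries and error bars, drawn in the first 2 panels, are SD. The sums of mitosis genes and keratinocyte markers are higher in every UVB library than in any control of the same genotype, and the sum of hair follicle markers is lower.

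Markers of other cell types are given as counts, beside 18.8% of all genes called in WT and 32.3% in KO, and a share near these is not read as a change. Fibroblast markers (0 of 6 called in WT, 2 of 6 lower in KO; Col1a1 was at 0.01 in WT and -0.90 in KO), endothelial markers (0 of 4 in both) and macrophage markers (0 of 7 in both) had none called higher. All 7 macrophage markers had negative log2 fold changes in WT (median -0.52) and positive ones in KO (median 0.37). For KO against WT with UVB, 0 of the 7 were called. In edgeR, 5 of them had an unadjusted p under 0.05, as did 2857 of all 17531 genes. T and NK cell markers were higher for 1 of 10 and lower for 4 in WT, and higher for 2 and lower for 4 in KO. Neutrophil markers were higher for 1 of 4 in WT and 4 of 4 in KO, where they summed to 35.1 to 364 CPM against 10.3 to 31.0 CPM in the controls, and Ly6g, not tested, was at 0 in 9 libraries. Skeletal muscle markers were lower for 1 of 6 in WT and 3 of 6 in KO, sebaceous gland markers were higher for 2 of 6 in each and lower for 1 in WT, and 1 of 6 melanocyte markers was lower in each genotype. The part of other cell types in the levels of the mitosis genes was not tested.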

How the data were processed

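Whole mouse skin was profiled by directional, poly(A)-enriched RNA sequencing, per the labels' protocols. Per the submitters' processing notes, STAR aligned the reads to GRCm39 (version and annotation: not given in the sources used here). Values deposited by the authors are raw read counts per gene for each library, and the count on the reverse strand was used because it held 95.7% of stranded reads. Lines for unmapped (10.7 to 19.5%), no-feature (7.25 to 10.2%) and ambiguous (1.18 to 1.42%) reads stayed out of library sizes. A combined table has 17 value columns with no sample names, which were not used. Symbols and gene order came from GENCODE M21, of another build, and named 52083 IDs.

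Counts were fitted with edgeR 4.0.16 in R 4.3.3 (TMM, filterByExpr, robust quasi-likelihood) as 1 model of 4 groups. This gave 5 contrasts, with p adjusted by Benjamini-Hochberg over 17531 genes and a threshold of 0.05. Depth ran from 15644375 to 23200649 reads in genes. No 2 libraries of a group agreed within sampling noise (chi-square per degree of freedom at least 14.9). The highest value, 157.8, was between KO UVB libraries 1 and 4. Log2 CPM have a prior count of 2. Values in every library are given for the 2 most abundant members of each of 10 role groups and for Mki67, Top2a, Ccnb1, Cdk1, Plk1, Aurkb, Birc5 and Foxm1. Other members are named where they depart from their role group or are an extreme. Ccnb2, Cdc20, Cdc25c, Ect2, Kif23, Kif20a, Ndc80, Nuf2, Spc24, Spc25, Cenpe, Aspm and Tnnc2 were added after their values were seen. Named non-members are the 2 called genes of each other list with the highest mean count, Tnfrsf1a, Tnfrsf1b, Cdkn1a, E2f1, Ccnd1, Krt14, Krt10, Col1a1 and Krt71, and the few genes that make up a small count. Alternatives were DESeq2 1.42.0, limma 3.58.1 voom with sample weights, other scalings and filters, unstranded counts, fewer groups, a replicate block, a hair follicle covariate and leaving out each library. The members and lists were chosen with earlier results of these data known.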

Additional observations from a re-analysis of the deposited data

Results flagged for a closer look

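In 15 of 296 groups of 4 values tested, 1 library stood apart from the other 3 by Dixon's criterion, which chance alone gives for about 1 in 20 groups. Of these, 6 were among the 172 groups of mitosis genes. In KO control, library 1 stood high for 5 of them. Mki67 was at 76.9 CPM there, against 50.7 to 53.7 in the others. Kif23 was at 17.6 CPM against 12.7 to 13.3, and Cenpe at 12.6 CPM against 6.12 to 6.65. Nuf2 was at 6.37 CPM against 2.88 to 3.38, and Kif2c at 5.59 CPM against 2.88 to 3.09. In WT UVB, library 3 stood high for Mybl2, at 7.61 CPM against 5.45 to 5.81.

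Outside the members, Ccnd2 in KO control was low in the same library 1, at 188 CPM against 310 to 324. Anapc5 in KO UVB was at 257 CPM in library 4, against 226 to 228. In WT UVB, library 2 stood high for Cdkn1a (348 CPM against 311 to 317), for Krt71 (41.6 CPM against 0.339 to 2.44) and for the sum of anagen hair follicle markers (193 CPM against 22.8 to 30.7). Krt71 in KO control was low in library 4, at 13.5 CPM against 60.1 to 67.7. The sum of neutrophil markers was 46.9 CPM in WT UVB library 3 against 17.7 to 22.1, and 364 CPM in KO UVB library 3 against 35.1 to 50.5. The sum of melanocyte markers was 98.0 CPM in WT UVB library 4 against 81.7 to 84.4. The causes were not tested.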

How the results depend on the processing

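The mitosis genes called higher numbered 37 to 43 in WT and 40 to 43 in KO under DESeq2, limma voom, DESeq2 size factors, library totals, no filter, a mean count of at least 100 (41 members tested), unstranded counts and a fit of the contrast's groups alone, and 0 were lower in any of these. Of all genes, 7.5% (no filter) to 29.2% (limma voom) were called in WT in these settings, and 13.8% to 42.9% in KO. Library totals put the median of all genes in WT at -0.12. Leaving out 1 library at a time gave 35 to 42 calls in WT, where 11.5 to 20.8% of all genes were called. In KO it gave 40 to 43, where 24.1 to 35.7% of all genes were. The members called for KO against WT and for the interaction stayed at 0 in every setting run. With the anagen hair follicle score as a covariate, 0 members were called after UVB in WT and 0 in KO, while the direction stayed positive for 43 of 43. Krt71 changed sign, to 2.47 in WT and 0.86 in KO, but it is 1 of the markers averaged into that score, so this is no separate result. All genes called then fell from 3290 to 1 in WT and from 5666 to 131 in KO. The score did not overlap between control and UVB libraries in either genotype, so in that fit it and the treatment cannot be told apart.

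A replicate block gave 40 calls in WT, where Ube2c lost its call, 42 in KO and 0 for the genotype contrasts and the interaction. Of all genes, 15.4% were then called in WT and 29.5% in KO. The labels share replicate numbers but do not say that they pair libraries, and the correlations of same-numbered deviations ran from -0.40 to 0.22, so the numbers were not taken as pairs. By depth, 2 members had a mean under 100 reads a library, where counting error is largest.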
